A study of Mus musculus with 6 samples.

Results

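Acetylation of histone H3 at lysine 27 (H3K27ac) was examined at 4 genes through which macrophages sense bacterial products: the receptors Tlr4 and Tlr2, the co-receptor Cd14 and the adaptor Myd88. The members were the peaks that overlapped a window holding each gene with about 10 kb on each side, in mouse build mm39. The windows were chromosome 4 (66735000-66859000) for Tlr4, chromosome 3 (83733000-83760000) for Tlr2, chromosome 18 (36847000-36870000) for Cd14 and chromosome 9 (119155000-119181000) for Myd88. They held 13 of the 25666 peaks of the Bmal1 knockout, 14 of the 24477 peaks of the Mfp2 knockout and 15 of the 29276 peaks of wild type.

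The cells were RAW264.7, a macrophage-like mouse line, with Bmal1 knocked out (Bmal1KO), with Mfp2 knocked out (Mfp2KO), or wild type (WT). BMAL1 is a transcription factor at the core of the circadian clock, and MFP2 is an enzyme of peroxisomal fatty acid β-oxidation. The libraries with the wild-type genotype label are titled Naive, a word the labels do not explain, and the file header of their peak list calls them WT. The labels name no treatment for any of the 3 groups and do not state whether a knockout is a single clone or a pool. Each genotype had 1 ChIP library, of 12.5, 15.8 and 15.8 M tags in Bmal1KO, Mfp2KO and WT, and 1 input library, so the values below compare libraries and no difference between genotypes could be tested. Intervals cover counting error only.

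Toll-like receptors are membrane proteins that bind conserved microbial molecules. TLR4 responds to lipopolysaccharide, which CD14 hands to the receptor, and TLR2 responds to bacterial lipoproteins and also uses CD14. Both receptors signal through the adaptor MyD88, which recruits kinases that lead to NF-kB and to transcription of inflammatory genes. H3K27ac marks active promoters and enhancers, and long acetylated stretches are typical of genes that a cell type expresses strongly.

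The genes differed in how they stood against WT. Tlr4 had far fewer tags in both knockouts. The domain called around Cd14, which ran on toward a neighbouring gene, was shorter and more broken in both, and called length was shorter in most of the genome. Tlr2 kept 1 main region in every list, and Myd88 was close to WT in Bmal1KO and well above it in Mfp2KO. Tags are given as the authors scaled them, per 10 M tags of the library. On this scale Mfp2KO was generally above WT: over the 16670 regions called in both lists, the median log2 ratio of tags was 0.43, against -0.25 over the 17597 regions called in both Bmal1KO and WT. The authors' share of tags in peaks was 37.4% in Bmal1KO, 57.2% in Mfp2KO and 38.7% in WT. Ratios of summed tags per gene are therefore given as deposited and also relative to these medians, and both comparisons use the same WT library. Ratios of single regions are as deposited unless stated.

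**Figure D1:**
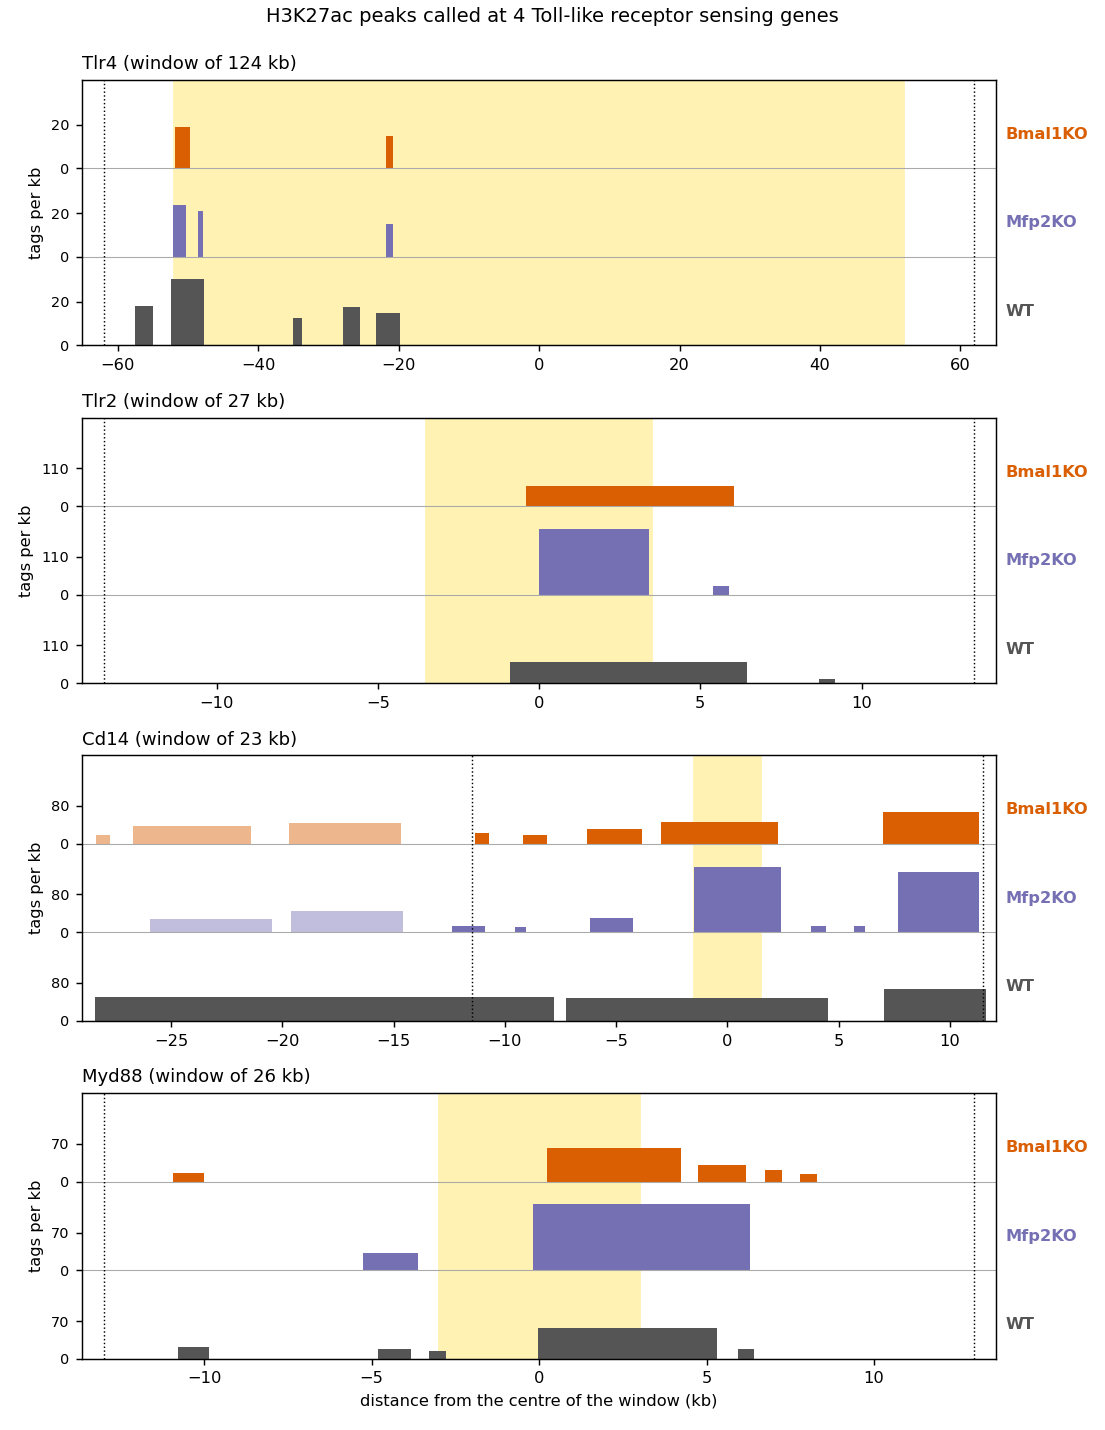
Peaks at each gene, with height in tags per kb (tags per 10 M library tags) against distance from the centre of the window in kb, in Bmal1KO, Mfp2KO and WT from top to bottom. Yellow marks the gene as the window implies it, dotted lines the window, and pale bars knockout peaks outside the Cd14 window that lie under a WT peak reaching into it; Tlr4 has 2, 3 and 5 peaks, and Cd14 has a WT peak of 20631 bp where the knockouts have several short ones.

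Tlr4 encodes the lipopolysaccharide receptor. Its window held 2 peaks and 54.3 tags in Bmal1KO, 3 peaks and 71.3 tags in Mfp2KO, and 5 peaks and 302 tags in WT. The Bmal1KO sum had a 95% Poisson interval of 42.1 to 68.8 tags, the Mfp2KO sum 59.0 to 86.1 and the WT sum 276 to 330.4, so the knockout intervals overlapped each other and neither reached that of WT. Against WT the log2 ratio was -2.48 for Bmal1KO, with a 95% counting interval of -2.87 to -2.11. For Mfp2KO it was -2.08 (-2.39 to -1.78). Relative to the median region these were -2.23 and -2.51. On the deposited scale Bmal1KO thus had 0.180 times the WT tags and Mfp2KO 0.236 times.

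The strongest Tlr4 region lay at the edge where the gene begins and was called in every list. There Bmal1KO had 41.1 tags in 2161 bp, Mfp2KO had 43.7 tags in 1828 bp with a further 13.0 tags in 626 bp, and WT had 143 tags in 4752 bp (66744571-66749323). Summed over that region the log2 ratio to WT was -1.80 in Bmal1KO (-2.25 to -1.35) and -1.34 in Mfp2KO (-1.71 to -0.98). Tag density was also lower than in WT, at 19.0 tags per kb in the Bmal1KO peak and 23.9 in the main Mfp2KO peak, against 30.2 in WT.

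A second region called in every list lay further toward higher coordinates. It held 13.2 tags in Bmal1KO, 14.6 tags in Mfp2KO and 52.2 tags in WT (66773706-66777224), a log2 ratio of -1.98 (-2.78 to -1.17) and -1.84 (-2.57 to -1.15). The called stretch was 898 bp in Bmal1KO, 970 bp in Mfp2KO and 3518 bp in WT, while density was nearly level at 14.7, 15.1 and 14.8 tags per kb. The knockout peaks thus lay within the longer WT peak. Each density is a mean over its own called stretch, and WT density over the part shared with the knockouts was not measured.

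The other Tlr4 regions were called in WT alone. A peak outside the gene at the low-coordinate end (66739461-66742057) had 46.5 tags and 8.64-fold enrichment over input, with 3109 bp to the nearest Bmal1KO peak and 2798 bp to the nearest Mfp2KO peak. A peak at 66768995-66771538 had 45 tags and 26.72-fold enrichment, in the top 1.64% of WT peaks by fold, with knockout peaks no nearer than 3673 bp. That fold stands over only 1.68 input tags, at 0.166 times the median input density of WT peaks. By tags the same peak was in the top 48.4% of WT peaks, and by density in the top 68.3%. The weakest (66761970-66763152) had 14.9 tags, and no knockout peak lay within 12059 bp of it. Together these peaks held 106 WT tags, or 35.2% of the WT tags in the window. A peak missing from a list is not absence of the mark: the lowest peak called anywhere had 5.58 tags in Bmal1KO and 5.39 in Mfp2KO.

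Beside the rest of the genome, Tlr4 lay near the low end in both comparisons. The genome was cut into tiles of about the length of the Tlr4 window, and of those with a peak in both lists 2.09% of 7138 had as low a ratio in Bmal1KO and 4.86% of 6973 in Mfp2KO. Tiles lower by over 1.5-fold were 26% of all in Bmal1KO and 16.3% in Mfp2KO. A further 748 tiles with a WT peak, 9.49% of such tiles, had no Bmal1KO peak at all, and 913, or 11.6%, had no Mfp2KO peak. They have no ratio and are left out of these ranks, although their called knockout signal was lower still. The WT level itself was ordinary, since 53.1% of tiles with WT peaks had at least as many WT tags. On the deposited scale the lower sums went with a shorter called length, 3.06 kb in Bmal1KO and 3.42 kb in Mfp2KO, against 14.6 kb in WT. Density was 17.8, 20.8 and 20.7 tags per kb, as means over called stretches whose extent differed between lists.

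**Figure D2:**
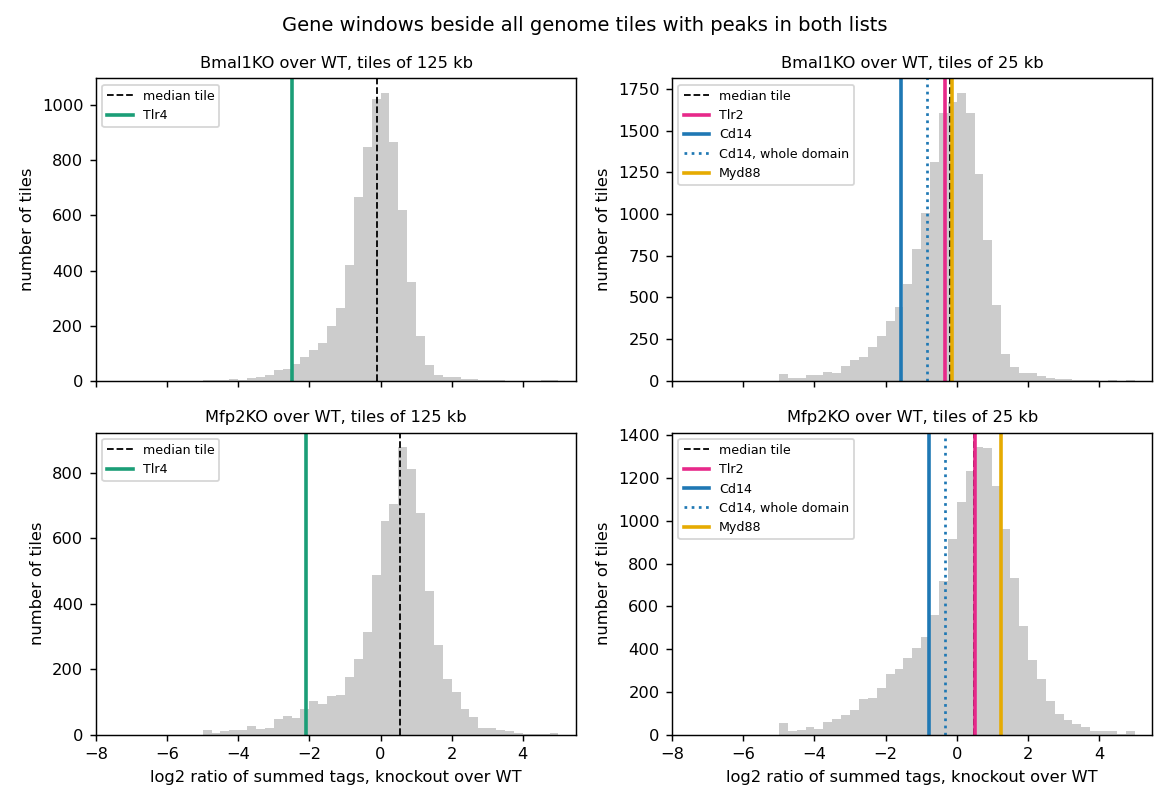
Log2 ratio of summed tags of each knockout over WT, for every tile of the genome with peaks in both lists (grey; ratios past 5 in either direction stand in the end bins), with the 4 genes as lines and the median tile dashed. Tlr4 at -2.48 and -2.08 stands in the lower tail, whereas Tlr2 at -0.32 and 0.52 lies close to the median tile.

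Tlr2 encodes the lipoprotein receptor, and its window was dominated by 1 region in every list. The 250 bases before its RefSeq start, on the minus strand of chromosome 3 (RefSeq promoter table, build GRCm38.p6), are shown because this region lies over the 5′ part of the gene. Capitals mark the only match found there to the motifs searched, an NF-kB motif.
Tlr2: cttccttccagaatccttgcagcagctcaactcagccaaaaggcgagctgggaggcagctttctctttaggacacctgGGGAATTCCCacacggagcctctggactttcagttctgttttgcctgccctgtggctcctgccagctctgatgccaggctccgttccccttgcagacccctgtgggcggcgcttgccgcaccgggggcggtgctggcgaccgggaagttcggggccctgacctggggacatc
The motifs were CACGTG (E-box), TGANTCA (AP-1), GAGGAAG (ETS), TTGCNNAAT (C/EBP) and, for NF-kB, GGGA and CC with 4 bases of any kind between them, on both strands. Of the 32851 promoters in the table, 6.02%, 6.75%, 10.6%, 2.11% and 17.6% held them in these 250 bases, so the NF-kB match is common and is a description of letters only. The table is of another build than the peaks, so the sequence could not be placed within a peak to the base.

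The Tlr2 window had 1 peak with 371 tags in Bmal1KO, 2 peaks with 663 tags in Mfp2KO and 2 peaks with 464 tags in WT. The Poisson intervals were 339 to 407 tags in Bmal1KO, 623 to 704 in Mfp2KO and 431 to 499 in WT, and none overlapped another. The log2 ratio to WT was -0.32 in Bmal1KO (-0.49 to -0.15) and 0.52 in Mfp2KO (0.38 to 0.65). Relative to the median region both came near zero, at -0.075 in Bmal1KO and 0.084 in Mfp2KO, so Tlr2 stood where the middle of the genome stood. As low a ratio or lower was found in 44.1% of 15127 tiles of 25 kb in Bmal1KO and in 51.5% of 14534 in Mfp2KO. Tiles of 25 kb, here and below, are those with a peak in both lists unless WT peaks are named. A further 3612 tiles with a WT peak, 19.3% of such tiles, had no Bmal1KO peak, and 4205, or 22.4%, had no Mfp2KO peak. They have no ratio and are left out of these ranks.

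The form of the Tlr2 region differed more than its sum. The main peak spanned 6478 bp in Bmal1KO (83746079-83752557), 3414 bp in Mfp2KO (83746504-83749918) and 7330 bp in WT (83745605-83752935). It held 57.3 tags per kb in Bmal1KO, 190 in Mfp2KO and 62.4 in WT. Mfp2KO thus had the shortest and densest peak, with 15.14-fold enrichment over input against 8.55-fold in Bmal1KO and 9.18-fold in WT. The rest of the WT extent held a Mfp2KO peak of 500 bp with 13.0 tags. A WT peak of 6.65 tags (83755171-83755671) had no peak in either knockout.

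Cd14 encodes the lipopolysaccharide-binding co-receptor found on monocytes and macrophages. Its window had the most summed tags of the 4 genes in every list but not the highest density, at 46.9 tags per kb in Bmal1KO, 88.2 in Mfp2KO and 51.5 in WT, where Tlr2 had 57.3 in Bmal1KO, 169 in Mfp2KO and 59.2 in WT. The peak over the gene covered it in full in every list. The window overlapped 5 peaks with 647 tags in Bmal1KO, 7 peaks with 1114 tags in Mfp2KO and 3 peaks with 1906 tags in WT. Only 0.277% of 25-kb tiles with WT peaks had as many WT tags. The 3 sums were far apart relative to their intervals, which were 602 to 692 tags in Bmal1KO, 1062 to 1167 in Mfp2KO and 1838 to 1975 in WT.

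Part of that difference comes from the window itself. The largest WT peak spanned 20631 bp (36830075-36850706) and reached 16.9 kb past the window, and the rule counts all of its 1030 tags. Under the same stretch, but outside the window, Bmal1KO had peaks of 219, 194 and 11.6 tags and Mfp2KO had peaks of 232 and 159 tags. With these included, the Cd14 domain held 1071 tags in Bmal1KO, 1505 in Mfp2KO and 1906 in WT. The log2 ratio to WT changed to -0.83 in Bmal1KO (-0.92 to -0.74), against -1.56 by the window rule, and to -0.34 in Mfp2KO (-0.42 to -0.26), against -0.78. Relative to the median region the whole domain was at -0.59 in Bmal1KO and -0.77 in Mfp2KO. Among 25-kb tiles, 11.5% in Bmal1KO and 19.4% in Mfp2KO were as low as the ratio by the window rule. As low as the whole-domain ratio were 25.6% in Bmal1KO and 26.5% in Mfp2KO. That comparison is unlike, since tiles were summed by overlap alone, with no peaks added from outside the tile. With only those peaks whose midpoint lay in the window, which leaves the long WT peak out, the ratio was -0.44 in Bmal1KO and 0.32 in Mfp2KO.

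**Figure D3:**
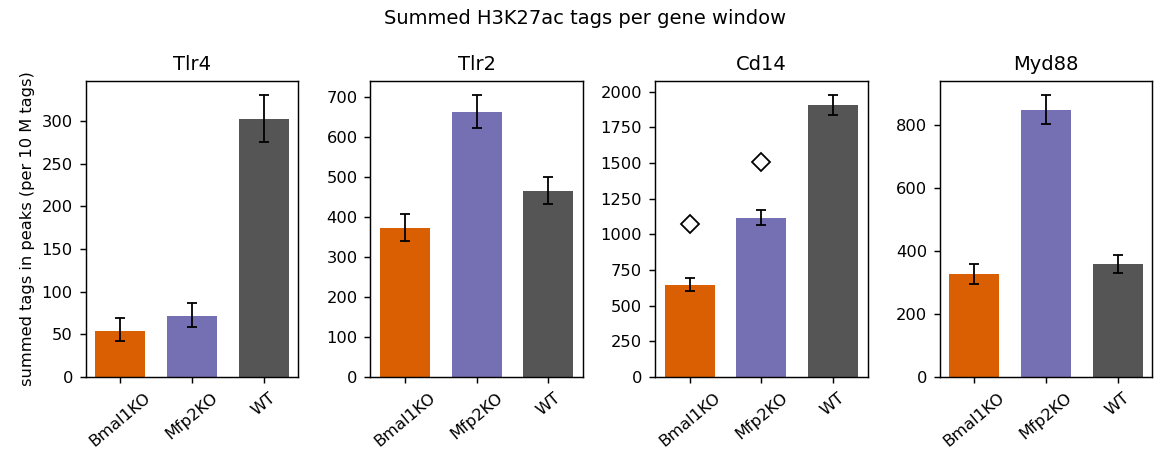
Summed tags of the peaks in each window, per 10 M tags of the library, in Bmal1KO, Mfp2KO and WT, with 95% Poisson intervals for counting error; axes start at 0 and differ between genes. White diamonds add the knockout peaks outside the Cd14 window that lie under the long WT peak, 1071 tags in Bmal1KO and 1505 in Mfp2KO.

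The regions of the Cd14 domain did not move together. The long region farthest from the gene held 461 tags in Bmal1KO, 418 tags in Mfp2KO and 1030 tags in WT, a log2 ratio of -1.16 (-1.30 to -1.02) and -1.30 (-1.43 to -1.17). There 5 Bmal1KO peaks covered 12.7 kb and 4 Mfp2KO peaks 12.5 kb of the 20.6 kb called in WT. This region ended short of the gene as the window implies it. It lay on the side of E230025N22Rik, the coding gene before Cd14 in the order of the RefSeq table. Which gene the region belongs to was not tested. The region over the gene (36851226-36863017) held 319 tags in Bmal1KO, 614 in Mfp2KO and 573 in WT, which put Bmal1KO at -0.85 (-1.02 to -0.68) and Mfp2KO at 0.10 (-0.03 to 0.23). Relative to the median region these were -0.60 and -0.33. The peak on the gene itself had 46.6 tags per kb over 5232 bp in Bmal1KO, 138 over 3939 bp in Mfp2KO and 48.6 over 11791 bp in WT. These densities are means over called stretches of unlike extent. Enrichment over input was 14.97-fold in Bmal1KO, 29.72-fold in Mfp2KO and 14.18-fold in WT.

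The third Cd14 region lay toward the neighbouring gene on the other side, which is Tmco6 in the order of the RefSeq table. It held 291 tags in Bmal1KO, 467 in Mfp2KO and 304 in WT, with log2 ratios of -0.06 (-0.26 to 0.14) and 0.62 (0.45 to 0.79). Relative to the median region both knockouts were at 0.19 there. A short peak of 6.65 tags (36864198-36864698) was called in Mfp2KO alone, 858 bp from a WT peak. Of the regions called in every list in this domain, the one over 20 kb long was thus lower in both knockouts, and the one nearest Tmco6 was lower in neither beyond its counting interval.

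Myd88 encodes the adaptor shared by most Toll-like receptors. Its neighbour in the RefSeq table is Acaa1a, which encodes a thiolase of peroxisomal β-oxidation and is transcribed in the opposite direction, so peaks at the start of Myd88 cannot be given to 1 of the 2 genes. The 250 bases before the Myd88 start, on the minus strand of chromosome 9 (RefSeq, GRCm38.p6), are shown because the main region lies over that end of the gene. They held no match to any of the 5 motifs.
Myd88: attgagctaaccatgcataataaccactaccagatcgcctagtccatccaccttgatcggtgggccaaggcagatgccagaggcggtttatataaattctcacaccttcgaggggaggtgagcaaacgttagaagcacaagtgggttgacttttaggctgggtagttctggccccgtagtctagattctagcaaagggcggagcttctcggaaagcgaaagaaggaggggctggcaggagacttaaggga
GC content over these bases was 51.2% for Myd88 and 62.8% for Tlr2, and the median promoter of the table had 52.4%.

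The Myd88 window held 325 tags in 5 peaks in Bmal1KO, 847 tags in 2 peaks in Mfp2KO and 357 tags in 5 peaks in WT. The Poisson interval of Bmal1KO, 295 to 359 tags, overlapped that of WT, 328 to 388, and that of Mfp2KO, 802 to 893, lay above both. The log2 ratio to WT was -0.13 in Bmal1KO (-0.32 to 0.05) and 1.25 in Mfp2KO (1.10 to 1.39), a fold of 2.37. Relative to the median region Bmal1KO was at 0.11 and Mfp2KO at 0.82. Ratios as high as that of Mfp2KO were found in 22.8% of 25-kb tiles.

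Over the Myd88 window the difference in Mfp2KO lay in density, with called length at 98.3% of WT. The main peak alone was both denser and longer in Mfp2KO than in WT. The region over the start held 293 tags in Bmal1KO, 793 in Mfp2KO and 312 in WT (119167819-119174431 over all lists), with log2 ratios of -0.09 (-0.29 to 0.11) and 1.35 (1.19 to 1.5). Its main peak had 62.3 tags per kb in 3994 bp in Bmal1KO, 122 tags per kb in 6491 bp in Mfp2KO and 56.5 tags per kb in 5363 bp in WT. Enrichment over input was low for so strong a region, at 5.02-fold in Bmal1KO, 8.37-fold in Mfp2KO and 4.92-fold in WT, where the authors required 4-fold. Input was dense there in every list: it was 2.88 times the median density of peaks in Bmal1KO, 2.60 times in Mfp2KO and 2.88 times in WT. On the scale of the ChIP tags, input in the main peak was 12.4 tags per kb in Bmal1KO, 14.6 in Mfp2KO and 11.5 in WT. With input tags subtracted the log2 ratio of the window was 1.37 in Mfp2KO and -0.14 in Bmal1KO. The part of input in the result was not tested.

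Weak peaks around Myd88 differed from list to list. A peak inside the low-coordinate end of the window had 14.0 tags in Bmal1KO, no Mfp2KO peak, and 19.9 tags in WT (119157210-119158147). The next had no Bmal1KO peak, 53.5 tags in 1643 bp in Mfp2KO and 18 tags in 975 bp in WT (119163197-119164172). On the deposited scale Mfp2KO thus had 2.97 times the WT tags there, a log2 ratio of 1.57 (0.95 to 2.26). Relative to the median region it was at 1.14. A peak of 6.97 tags (119164714-119165214) was called in WT alone. Peaks of 11.2 tags (119174740-119175240) and 7.18 tags (119175794-119176294), on the side of Acaa1a, were called in Bmal1KO alone.

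Across the 4 genes, 2 had a sum lower than WT by over 1.5-fold in Bmal1KO, Tlr4 and Cd14, and none was higher. The background was 33.4% of 25-kb tiles with a peak in both lists lower and 16.5% higher, with the shares of longer tiles for Tlr4 as given above. In Mfp2KO the same 2 genes were lower and Myd88 was higher, where 22.4% of such 25-kb tiles were lower and 46% higher. These shares leave out 25-kb tiles with a WT peak and no knockout peak, whose called knockout signal was lower still. Such tiles were 19.3% of those with a WT peak for Bmal1KO and 22.4% for Mfp2KO, so the shares of lower tiles are too small. Relative to the median region the same genes were past 1.5-fold, against 25.6% of tiles lower and 26.3% higher in Bmal1KO, and 30.7% lower and 30.1% higher in Mfp2KO. With the whole Cd14 domain counted, Cd14 was past 1.5-fold in Bmal1KO but not in Mfp2KO on the deposited scale, and past it in both relative to the median region. The median log2 ratio over the 4 genes was -0.94 in Bmal1KO and -0.13 in Mfp2KO, and that over all 25-kb tiles was -0.19 and 0.48. Members differ so widely that these medians describe no single gene. Of the single regions called both in Bmal1KO and in WT, 3 of 8 were lower in Bmal1KO by over 2-fold, against 21.8% of all such regions, and none was higher, against 5.47%. Of those called both in Mfp2KO and in WT, 3 of 8 were lower in Mfp2KO, against 18.4%, and 2 of 8 higher, against 31%. The lower ones were the same in both: the 2 Tlr4 regions and the long region beside Cd14, which ended short of the gene. These counts are on the deposited scale. Relative to the median region the Tlr4 regions were at -1.56 and -1.74 in Bmal1KO, and -1.77 and -2.27 in Mfp2KO. The long region beside Cd14 was then at -0.91 in Bmal1KO and -1.73 in Mfp2KO. The 2 regions higher in Mfp2KO, both at Myd88, were then at 1.14 and 0.91.

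**Figure D4:**
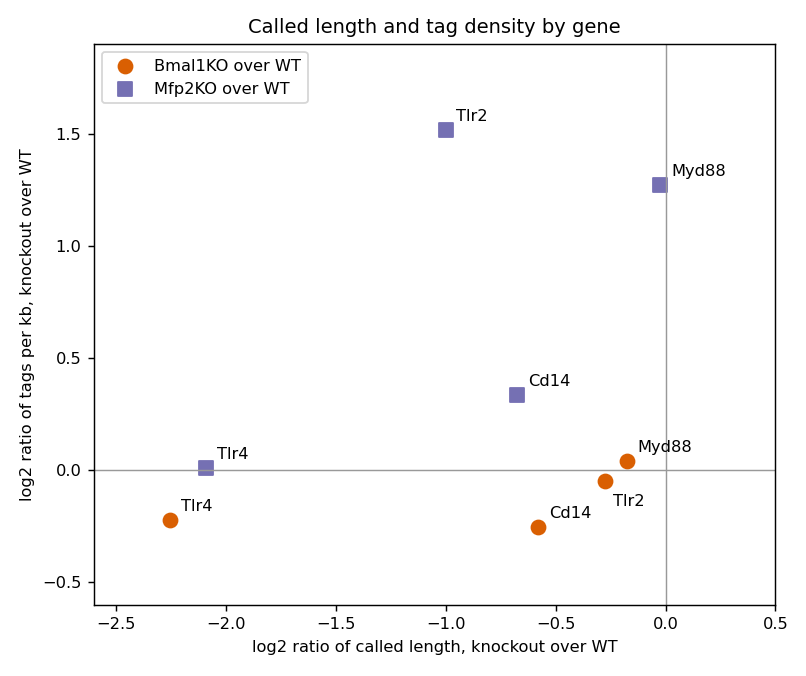
Log2 ratio of called length against log2 ratio of tags per kb, each knockout over WT, for the 4 genes (circles Bmal1KO, squares Mfp2KO; Cd14 over its whole domain). Tlr4 lies at the left with nearly level density on the deposited scale, at -2.25 and -0.22 in Bmal1KO and -2.09 and 0.0087 in Mfp2KO, while Tlr2 and Myd88 in Mfp2KO lie at the top with 1.52 and 1.27 for density.

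Called length was below WT for all 4 genes in both knockouts, as it was for most of the genome. Among 25-kb tiles with a peak in both lists, it was shorter than in WT in 77.3% in Bmal1KO and 75.9% in Mfp2KO. The median was 78.8% of the WT length in Bmal1KO and 77.0% in Mfp2KO. Of the longer tiles used for Tlr4 it was shorter in 80.6% in Bmal1KO and 79.9% in Mfp2KO. In Bmal1KO the called length was 21.0%, 82.7%, 66.9% and 88.6% of WT for Tlr4, Tlr2, the whole Cd14 domain and Myd88, and in Mfp2KO it was 23.5%, 49.99%, 62.6% and 98.3%. Tlr4 was the gene farthest from the median tile. Among the longer tiles with a peak in both lists, as short a length relative to WT was found in 2.03% in Bmal1KO and 4.60% in Mfp2KO. Among 25-kb tiles the corresponding shares in Bmal1KO were 55.9% for Tlr2, 35.2% for the whole Cd14 domain and 63.9% for Myd88. In Mfp2KO they were 19.8% for Tlr2, 31.6% for the whole Cd14 domain and 74.4% for Myd88. For Cd14 this comparison is unlike, as it was for tags, since tiles had no peaks added from outside the tile.

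Density per kb, as a log2 ratio to WT on the deposited scale, lay between -0.25 and 0.04 over the 4 genes in Bmal1KO. In Mfp2KO it was 0.0087 at Tlr4, 0.33 over the Cd14 domain, 1.27 at Myd88 and 1.52 at Tlr2. Density was higher in Mfp2KO in general: the median 25-kb tile was at 0.75 in Mfp2KO and 0.12 in Bmal1KO, and the median longer tile at 0.92 in Mfp2KO and 0.25 in Bmal1KO. Relative to these medians Tlr4 was at -0.47 in Bmal1KO and -0.91 in Mfp2KO, and the Cd14 domain at -0.37 in Bmal1KO and -0.41 in Mfp2KO, so both stood below the general level. The Cd14 domain again holds peaks from outside its window, which the tiles do not. Tlr2 was at -0.17 in Bmal1KO and 0.77 in Mfp2KO, and Myd88 at -0.081 in Bmal1KO and 0.53 in Mfp2KO. None of these was rare among tiles: as low a density ratio as that of Tlr4 was found in 16.1% in Bmal1KO and 14.0% in Mfp2KO, and as high a ratio as that of Tlr2 in Mfp2KO in 19.7%.

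Of the 15 WT peaks in the windows, 6 had no Bmal1KO peak, against 38.9% of all WT peaks, and 6 had no Mfp2KO peak, against 41.4%. Both counts stand close to these shares. Neither knockout had a peak at 5 of the 15, 3 of them at Tlr4, 1 at Tlr2 and 1 at Myd88, where 31.1% of all WT peaks had none. Such peaks are mostly weak, and rank by tags sets the background more sharply. The Tlr2 and Myd88 peaks were in decile 1 of WT peaks by tags, the lowest, of which 88.3% had no knockout peak, and the weakest Tlr4 peak was in decile 4, with 45.2%. The other 2 Tlr4 peaks, of 46.5 and 45 tags, were in decile 6, where 8.13% had no peak in either knockout. No Cd14 peak of WT was missing from a knockout. Those peaks were in deciles 9 and 10, where 0.307% or fewer of WT peaks had no Bmal1KO peak and 0.581% or fewer had no Mfp2KO peak.

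**Figure D5:**
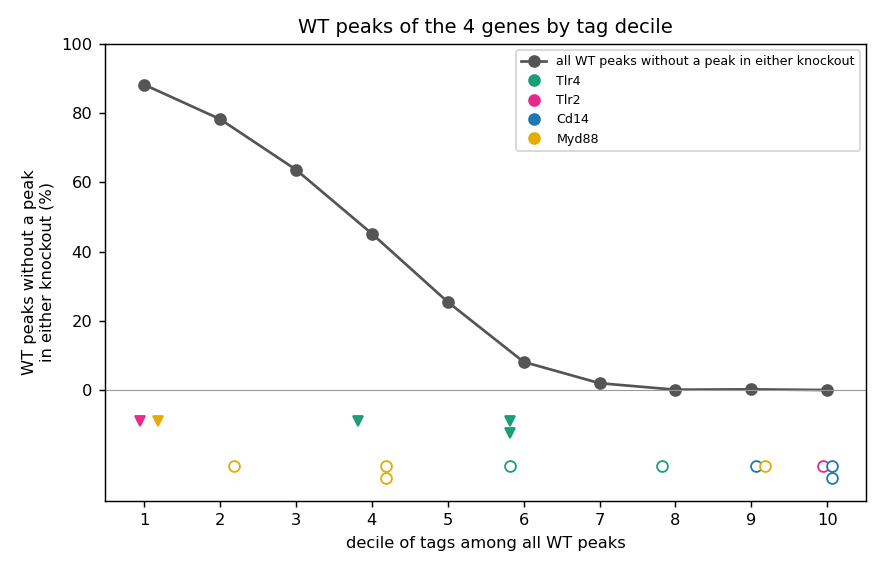
Share of all WT peaks with no peak in either knockout, in percent, by decile of WT tags (grey line), with the 15 WT peaks of the 4 genes placed by decile under the line, where height carries no value. Filled triangles are the 5 peaks missing from both knockouts and open circles the 10 others; 2 Tlr4 triangles stand in decile 6, where the share is 8.13%.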

How the data were processed

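H3K27ac ChIP-seq of RAW264.7 cells was analysed from 3 peak lists, 1 per genotype, each made from 1 ChIP library against the input of that genotype. Per the file headers, HOMER findPeaks was run by the authors in histone style: windows of 500 bp were stitched into regions that needed 4-fold enrichment and a p-value of 0.0001 over input. No deposited p-value is used here. The submitters' processing notes name HOMER 5.1 and build mm39. The treatment of duplicate reads is not stated there. Tag counts are a deposited signal, per 10 M tags of the library per the file headers. Deposited input tags are a signal too, brought here to the same scale, and the deposited fold over input is a ratio. The deposited findPeaks score supports no result.

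Peaks were taken into a gene by any overlap with its window. Tags were summed, and 95% intervals are exact Poisson or, for ratios, exact binomial (scipy 1.17.1), after rescaling to library depth. Regions are peaks of the 3 lists merged where they overlapped. Genome tiles of 25 kb, and longer ones for Tlr4, were summed in the same way, as were called lengths. Functions were tested on simulated data. Each genotype had 1 library, so no test between genotypes was made. Named were all 4 genes and, within them, the region with most WT tags, regions over 2-fold different and regions called in 1 or 2 lists. Members, lists and rules were chosen with earlier results of these data known. The gene table is of GRCm38.p6, so other Toll-like receptor pathway genes and cell type markers, which need mm39 positions, were not analysed here. Promoters came from RefSeq, with 2 of the 4 genes in the table. Of the alternatives, 7 for tag sums and 4 for peak counts were listed at the start, and the whole Cd14 domain was added after the data were seen.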

Additional observations from a re-analysis of the deposited data

How the results depend on the processing

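Of 64 log2 ratios recomputed under alternatives, 58 had the direction given in the report, and the text here gives the 6 that changed direction and those that moved beyond their counting interval. Tlr4 was below WT by over 1.5-fold in both knockouts under every alternative that used tag sums. As tags per kb it was at -0.22 in Bmal1KO and 0.0087 in Mfp2KO, since the lower sum came with a shorter called length. Density per kb also moved Tlr2 to -0.047 in Bmal1KO and 1.52 in Mfp2KO, and Cd14 to -0.14 in Bmal1KO and 0.78 in Mfp2KO, and turned Myd88 in Bmal1KO to 0.040, within its counting interval. Relative to the median region, Bmal1KO was at -0.075 for Tlr2, -1.31 for Cd14 and 0.11 for Myd88, and Mfp2KO at -2.51 for Tlr4, 0.084 for Tlr2, -1.21 for Cd14 and 0.82 for Myd88. Scaled to the tags in peaks, Mfp2KO was at -2.64 for Tlr4, -0.047 for Tlr2, -1.34 for Cd14 and 0.68 for Myd88. Cd14 depended most on which peaks were counted. With peaks whose midpoint lay in the window it was at -0.44 in Bmal1KO and 0.32 in Mfp2KO, with the window narrowed by 10 kb at -1.23 in Bmal1KO and -0.072 in Mfp2KO, and over the whole domain at -0.83 in Bmal1KO and -0.34 in Mfp2KO. These settings change whether the long WT peak, or the knockout peaks under it, are counted. Requiring 6-fold enrichment removed the main Myd88 peak from the Bmal1KO and WT lists, which left -1.47 in Bmal1KO and 5.32 in Mfp2KO, values that rest on weak peaks in those lists. WT peaks without a knockout peak stood near the share of all WT peaks throughout. In the narrowed window they were 3 of 8 for each knockout, against 38.9% of all WT peaks for Bmal1KO and 41.4% for Mfp2KO, the same shares as for the whole window. With list lengths made equal they were 4 of 13, against 29.6% for Bmal1KO and 31.4% for Mfp2KO, and with 6-fold enrichment 5 of 11, against 39.97% for Bmal1KO and 40.6% for Mfp2KO. With an overlap of 50% of the shorter peak they were 7 of 15 for Bmal1KO and 6 of 15 for Mfp2KO, against 40.8% for Bmal1KO and 43.8% for Mfp2KO. No paired analysis was possible because each genotype has 1 ChIP library and the labels number no replicates.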
